A study of Mus musculus with 2 samples.

Results

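The genes described here are the cytosolic ribosomal protein genes of mouse bone marrow cells measured by sc-RNA-seq. Members were taken by symbol: every gene symbol in either count table that begins with Rpl or Rps followed by a number, or is an Rplp symbol or Rpsa, leaving out symbols with -ps (pseudogenes) and the Rps6k kinase genes. The rule gave 86 of the 13211 genes of both tables together, 85 of them listed in the Col1a1fspKO table and 86 in the WT table. Of these, 77 encode the proteins of the cytosolic ribosome, 46 with large subunit and 31 with small subunit symbols. The other 9 are paralogs or genes with a similar symbol: Rpl3l, Rpl6l, Rpl7l1, Rpl22l1, Rpl36al, Rpl39l, Rps27l, Rps27rt and Rps19bp1. Among them, Rpl6l is annotated as a processed pseudogene, though its symbol has no -ps.

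The cells came from flushed femurs and tibias of mice aged 2 months, sorted for live cells. The Col1a1fspKO library was made from Fsp1-Cre;Col1a1flox/flox mice, in which Cre is driven by the promoter of S100a4 and loxP sites flank part of Col1a1, the gene of the α1 chain of type I collagen. WT mice were Cre-negative;Col1a1flox/flox littermates, so that both groups carried the floxed alleles. Each library pooled cells of 2 mice, and no value separates the mice of a pool. With 1 library for each genotype, no difference between genotypes could be tested against the spread between animals, and the intervals given below cover counting error only.

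The Col1a1fspKO library held 1309 cells and 8647722 UMIs (unique molecular identifiers, each a captured transcript), and the WT library 1169 cells and 8624469 UMIs. The shallowest cell had 2540 UMIs and the deepest 37314. Only 2 cell barcodes were found in both libraries. Col1a1 had 3 UMIs in the Col1a1fspKO library and no row in the table of the WT library, so that the deletion could not be checked in these cells, and a 3′ tag lies outside the deleted exons in any case. The cells were clustered without the ribosomal protein genes and named by marker genes into 12 classes. All markers of each class were higher there than in the other cells of the same library, apart from markers the tables do not list (1 of 6 for B cells and 2 of 10 for T and NK cells). These names were rebuilt from markers and may differ from those of the study. The Progenitor-like class, led by Mpo, Elane, Mt2 and Cd34, was mixed. A finer clustering, chosen for description after the data were seen, placed 10 of its 85 Col1a1fspKO cells and 16 of its 86 WT cells in a cluster led by Mt2 and Car1 that took the name Erythrocyte-like. These deep cells (median 26011 and 20375 UMIs) had 4.17 and 5.70 CPM (UMIs of a gene per 1000000 UMIs) of Elane and Mpo together, against 3466 and 5622 CPM in the rest of the class, and 8 of 8 and 7 of 8 erythroid markers were higher in them than in the rest. The share of the class, its end-to-end ratios and the counts of members with large and small ratios are also given without them, and the levels of single genes are given for the whole class.

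Ribosomal proteins form, with ribosomal RNA, the small and the large subunit of the ribosome, which translates messenger RNA. Their transcripts are among the most abundant of growing cells, and many begin with a 5′ terminal oligopyrimidine (TOP) tract, a C at the start site followed by a stretch of C and T, through which growth signalling controls their translation. Neutrophils stop dividing as they mature and pack their granules early, and red cell precursors lose their nucleus and later their ribosomes. B cell precursors alternate between dividing and resting stages.

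The RefSeq promoter table (build GRCm38.p6) held 65 of the 86 members. A symbol with several listed starts was counted where any of its starts met the search, for members and all symbols alike. A C at the listed start followed by at least 4 further C or T was found for 14 of these 65 (21.5%), against 3.01% of all 27025 symbols in the table. Counted from any C within 5 bases of the listed start, a stretch of at least 5 C or T was found for 30 members (46.2%) and for 21.2% of all symbols, and a stretch of at least 8 for 21 members (32.3%) and 5.17% of all symbols. The letters CTTTCC, read on both strands from 30 bases before to 30 bases after the start, were in 23.1% of the members and in 6.44% of all symbols. These windows overlap the stretches, so that both searches can count the same bases. The windows below run from 20 bases before the listed start to 10 bases from it on, 5′ to 3′ on the strand of the gene, with the stretch of C and T in capitals as far as it lies in the window. Where a gene had several listed starts, the window is that of the start with the longest stretch. The windows show 5 members with such a stretch and 3 without one. Among them are genes whose part in the ribosomal protein UMIs differed most between cell classes.
Rpl35 (chr2:39005122-39005151, minus strand): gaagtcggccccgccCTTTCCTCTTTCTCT
Rps18 (chr17:33955656-33955685, minus strand): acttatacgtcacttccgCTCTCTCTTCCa
Rps27 (chr3:90213639-90213668, minus strand): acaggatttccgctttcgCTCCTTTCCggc
Rps9 (chr7:3704021-3704050, plus strand): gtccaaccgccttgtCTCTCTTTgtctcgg
Rpl12 (chr2:32961692-32961721, plus strand): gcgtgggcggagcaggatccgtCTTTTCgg
Rpl10a (chr17:28328451-28328480, plus strand): gcgtggtggcgcccccccagcggccgcaaa
Rpl36a (chrX:134585634-134585663, plus strand): aggaagtgcacccaggcaccgcctataaac
Rps19bp1 (chr15:80264297-80264326, minus strand): accgccagggcggaagtagctcgccgcgtg

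Over all cells the members took 22.6% of the UMIs of the Col1a1fspKO library (95% exact binomial interval 22.59 to 22.64) and 23.02% of the WT library (22.99 to 23.05). Single cells ranged far more widely, from 1.12% to 53.3% in the Col1a1fspKO library (median 20.9%) and from 0.915% to 56.2% in the WT library (median 22.3%). Progenitor-like cells had the highest share of the 12 classes in both libraries and Neutrophil-1-like cells, led by Retnlg and Gm5483, the lowest. Between these ends stood, from high to low, the T and NK-like cells (35.5% in Col1a1fspKO and 36.7% in WT), the B cell-like cells (32.8% and 31.6%), the Dendritic-like cells (29.96% and 29.95%), the Mono/Macro-like cells (28.4% and 28.2%), the Pre-B-like cells (26.8% and 26.6%) and the Erythrocyte-like cells (19.7% and 22.3%). The Eosino/Baso-like cells (26.7% and 23.8%), led by Prss34 and Mcpt8, were only 9 and 18 cells. The Dendritic-like, Mono/Macro-like and Pre-B-like classes overlapped widely in the shares of their single cells, while no Neutrophil-1-like cell reached the lowest Progenitor-like cell of its library.

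**Figure D1:**
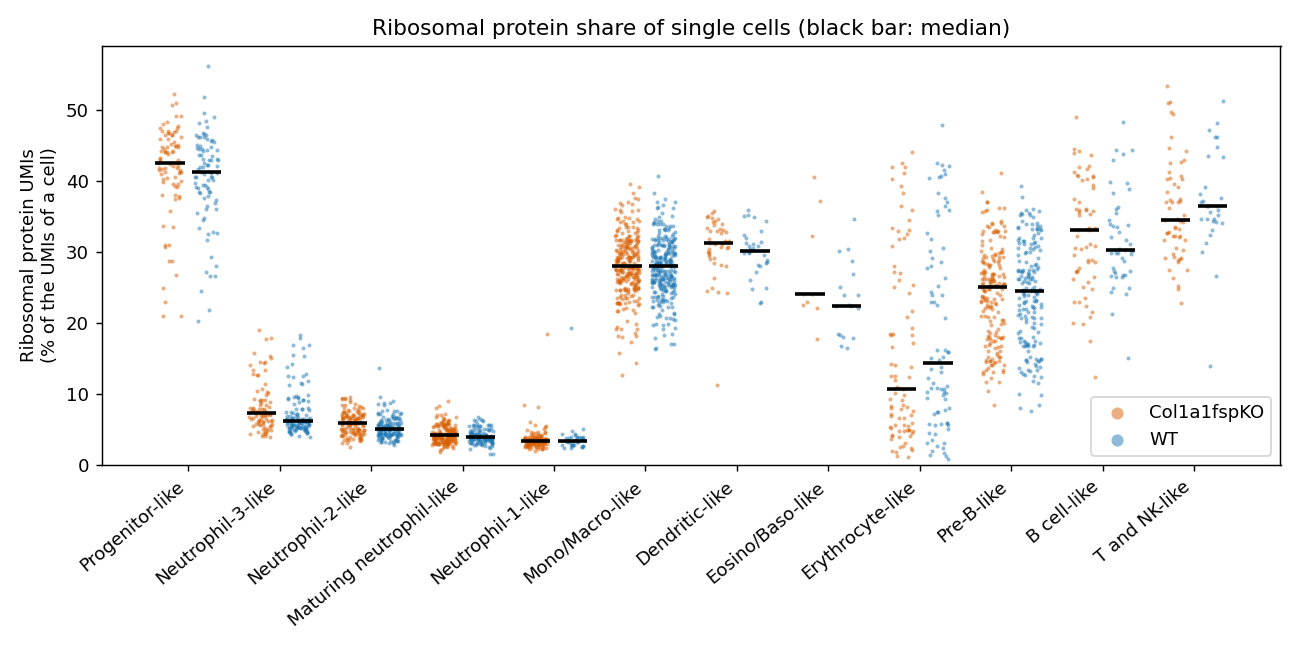
Share of the UMIs of each cell (percent, vertical axis) that came from the 86 member genes, by class and library, with a point for each cell and a black bar at the median. The 4 neutrophil classes lie below the other classes in both libraries, and the Erythrocyte-like cells span nearly the whole range.

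Along the neutrophil classes the share was lower at each later stage in both libraries. Progenitor-like cells had 40.3% in Col1a1fspKO (85 cells) and 40.03% in WT (86 cells). Neutrophil-3-like cells, the early neutrophils marked by Fcnb, Cebpe and Chil3, had 8.98% (88 cells) and 7.70% (119 cells). Neutrophil-2-like cells, marked by the granule genes Ltf, Camp and Ngp, had 5.92% and 5.33%. Of the steps between neighbouring stages, the one from the progenitors to the first neutrophil class was the largest, 4.48-fold in Col1a1fspKO (interval 4.45 to 4.52) and 5.20-fold in WT (5.16 to 5.24). Maturing neutrophil-like cells, marked by Mmp8 and Ly6g, had 4.28% and 4.05%, and Neutrophil-1-like cells 3.75% (114 cells) and 3.92% (38 cells). From end to end the share was 10.7-fold higher in progenitors in Col1a1fspKO (interval 10.6 to 10.9) and 10.2-fold in WT (9.94 to 10.5). Without the Mt2- and Car1-led cells, whose share was 42.8% and 44.3% and which held 24.1% and 32.2% of the ribosomal protein UMIs of the class, the Progenitor-like cells had 39.5% and 38.3%, still above the other classes. The end-to-end ratios were then 10.6-fold (interval 10.4 to 10.7) and 9.76-fold (9.50 to 10.04). The step to Neutrophil-3-like cells was then 4.40-fold and 4.97-fold. The last step was small and differed between the libraries, at 1.14-fold in Col1a1fspKO and 1.03-fold in WT. In each library 1 Neutrophil-1-like cell stood apart, at 18.4% and 19.3%. The WT cell held 15.0% of the ribosomal protein UMIs of its class and 34 of the 36 UMIs of Cd74, a gene of antigen-presenting cells. Without these cells the class had 3.60% in Col1a1fspKO and 3.44% in WT, and the end-to-end ratios were 11.2-fold and 11.7-fold.

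A share depends on what else a cell transcribes. S100a8 and S100a9, which encode calprotectin, alone took 27.4% to 37.7% of the UMIs of the neutrophil classes. The members were then counted as UMIs per cell, where other transcripts do not enter. The median Progenitor-like cell had 4029 ribosomal protein UMIs in Col1a1fspKO and 4745 in WT, and the median Neutrophil-1-like cell 104.5 and 119.5. This was a 38.6-fold and a 39.7-fold difference (35.9-fold in both libraries without the Mt2- and Car1-led cells), while the median UMIs of all other genes differed by 1.86-fold and 2.24-fold. Between progenitors and Neutrophil-3-like cells the ribosomal protein UMIs differed by 7.08-fold and 8.84-fold, and the other UMIs were no higher in progenitors (0.689-fold and 0.919-fold). Without the 20 most abundant other genes in the denominator, the end-to-end ratio of shares was 5.86-fold and 5.43-fold, lower at every stage in the same order. Fewer transcripts of a gene in a cell and a lower capture of them cannot be told apart in these counts.

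**Figure D2:**
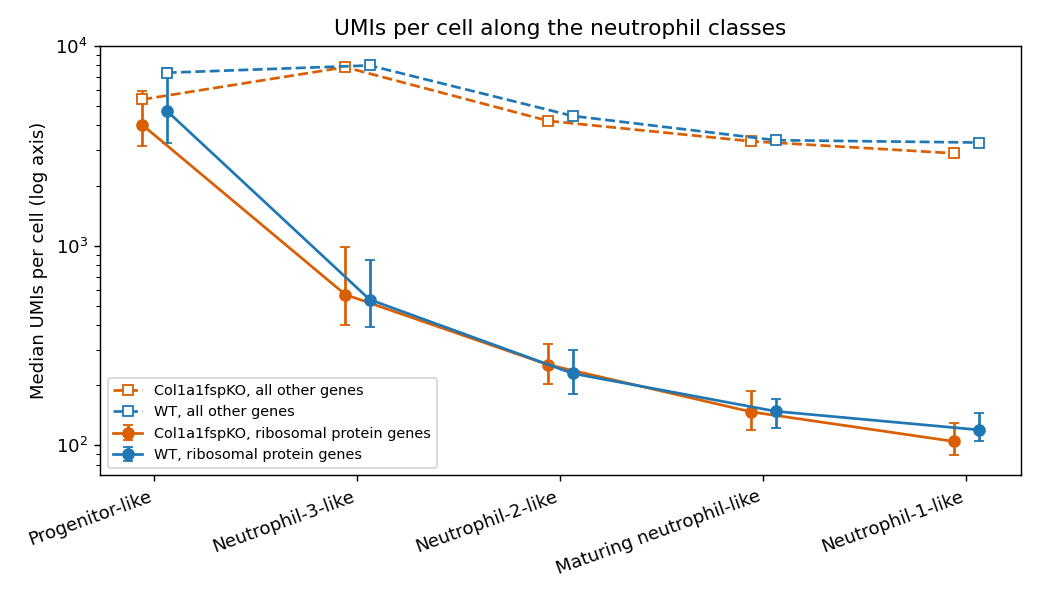
Median UMIs per cell (log axis) from the ribosomal protein genes (filled circles, bars from the first to the third quartile of cells) and from all other genes (open squares), along the progenitor and neutrophil classes of each library. The ribosomal protein UMIs go from 4029 and 4745 to 104.5 and 119.5, while the other UMIs are highest in Neutrophil-3-like cells, at 7835 and 7993, and end at 2901 and 3284.5.

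Free RNA in the droplets sets a floor for such low shares. Globin transcripts, which neutrophils should lack, made up 1.31% and 1.11% of the UMIs of Neutrophil-1-like cells, and S100a8 and S100a9 made up 0.239% to 1.86% of the UMIs in the classes outside the neutrophils. How much of the ribosomal protein share of neutrophils was free RNA was not tested.

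The members did not decline by the same factor. Of the 86 members, 82 had at least 200 UMIs over Progenitor-like and Neutrophil-1-like cells in each library, and all 82 were more than 25% higher in CPM in the progenitors. By the same minimum this held for 64.2% of all genes tested in Col1a1fspKO and 74.3% in WT. Since a gene reached the minimum mostly through the progenitors, these counts describe the genes that could be compared. The ratios ran from 2.14-fold to 69.1-fold in Col1a1fspKO (median 12.7) and from 2.38-fold to 72.1-fold in WT (median 12.5). Across these genes, which are not independent replicates, the log2 ratios of the libraries had a Pearson correlation of 0.92. In both libraries 6 genes were over 30-fold higher in progenitors (Rpl3, Rpl10a, Rpl12, Rpl36a, Rpl14 and Rpl22l1) and 5 were under 5-fold higher (Rps9, Rps27a, Rps27, Rps27rt and Rpl37). Without the Mt2- and Car1-led cells the 5 genes under 5-fold remained, and of the 6 over 30-fold only Rpl22l1 fell short, at 29.8-fold and 34.2-fold. Of the 4 members below the minimum, Rps19bp1 had 63 and 92 UMIs in the progenitors and 0 in the Neutrophil-1-like cells of both libraries.

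Rpl3, a core protein of the large subunit near its catalytic centre (chr15:80077791-80091868, GRCm38, minus strand), was at 4071 CPM in the progenitors of Col1a1fspKO and at 3979 CPM in those of WT. Its level was 490 and 391 CPM in Neutrophil-3-like cells, 169 and 162 CPM in Neutrophil-2-like cells, 57.2 and 56.6 CPM in Maturing neutrophil-like cells, and 62.8 and 59.4 CPM in Neutrophil-1-like cells. The end-to-end ratio was 64.9-fold in Col1a1fspKO (interval 43.2 to 102) and 66.9-fold in WT (33.9 to 155), resting on 23 and 8 UMIs in Neutrophil-1-like cells. In the classes outside the neutrophils Rpl3 was lowest in Erythrocyte-like cells, at 1712 and 2059 CPM. Rpl10a (chr17:28328471-28331033, plus strand) had 3585 and 3614 CPM in progenitors and 51.8 and 89.2 CPM in Neutrophil-1-like cells. Rpl12, part of the stalk base that factors of translation bind, had 3297 and 3578 CPM in progenitors and 51.8 and 89.2 CPM in Neutrophil-1-like cells. Rpl36a had 3897 and 3859 CPM against 65.5 and 111 CPM. Without the single WT cell that stood apart, the WT ratios were 130-fold for Rpl3, 78.6-fold for Rpl10a, 117-fold for Rpl12 and 62.9-fold for Rpl36a, so the size of these WT ratios rested on that cell and on few UMIs, 4 for Rpl3 and 8 for Rpl36a. The Col1a1fspKO ratios without its single cell were 86.9-fold, 76.5-fold, 79.7-fold and 58.9-fold.

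Rps9, a small subunit protein that binds ribosomal RNA early in assembly (chr7:3703993-3706897, plus strand), went a different way. It had 5117 and 4956 CPM in progenitors, 1757 and 1643 CPM in Neutrophil-3-like cells, 1910 and 1712 CPM in Neutrophil-2-like cells, 2153 and 1876 CPM in Maturing neutrophil-like cells, and 2393 and 2080 CPM in Neutrophil-1-like cells. Its CPM was thus higher in the latest than in the earliest neutrophil class of both libraries. In UMIs per cell it was still lower at the end, with a mean of 63.5 and 69.6 in progenitors and 7.69 and 7.37 in Neutrophil-1-like cells. Rps27a, which encodes ubiquitin fused to a small subunit protein, had 6269 and 6080 CPM in progenitors, 1870 and 1614 CPM in Neutrophil-3-like cells, and 2464 and 2051 CPM in Neutrophil-1-like cells. Rps27 had 6324 and 5680 CPM in progenitors and 1801 and 1768 CPM in Neutrophil-1-like cells. Rps27rt, a retrogene copy of Rps27, had 724 and 769 CPM against 259 and 260 CPM. Reads of Rps27rt and Rps27 may be assigned to either, and their split is uncertain.

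**Figure D3:**
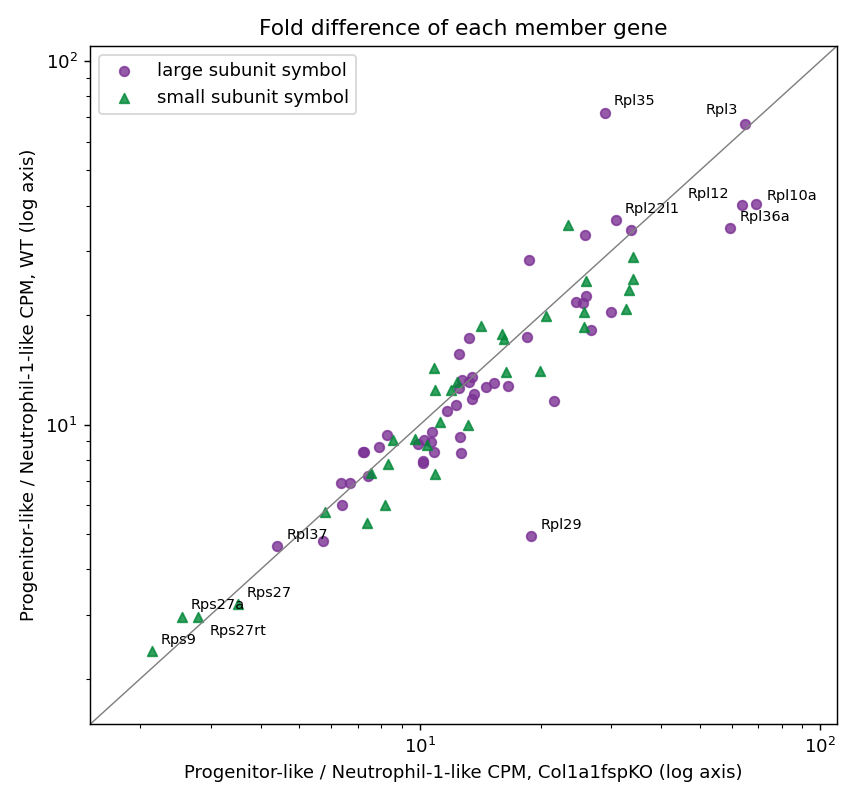
Ratio of CPM in Progenitor-like over Neutrophil-1-like cells for the 82 members with at least 200 UMIs, in Col1a1fspKO (horizontal, log axis) and WT (vertical, log axis), with the line of equal ratios. Circles are large and triangles small subunit symbols. Rps9, Rps27a, Rps27rt and Rps27 lie lowest and Rpl3, Rpl10a, Rpl12 and Rpl36a among the highest.

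These differences changed the makeup of the ribosomal protein UMIs. Rps9, Rps27a and Rps27 together were 4.40% of them in Col1a1fspKO progenitors and 4.18% in WT progenitors. In Neutrophil-1-like cells they were 17.8% and 15.0%. Rpl3, Rpl10a, Rpl12 and Rpl36a went from 3.69% and 3.75% to 0.619% and 0.891%. Both sets were chosen after their values were seen. The Neutrophil-1-like values include the single cells that stood apart. In WT Neutrophil-1-like cells Rpl3, Rpl10a, Rpl12 and Rpl36a had 8, 12, 12 and 15 UMIs. Without the single cell they had 4, 6, 4 and 8, so the WT value of 0.891% rested in part on that cell. The subunit ratios that follow also include the single cells. Small over large subunit UMIs were 0.781 and 0.776 in progenitors, 0.852 and 0.853 in Neutrophil-3-like cells, 0.876 and 0.870 in Neutrophil-2-like cells, 0.954 and 0.923 in Maturing neutrophil-like cells, and 0.993 and 0.949 in Neutrophil-1-like cells. The other classes lay between 0.754 and 0.814. With Rps9, Rps27a and Rps27 left out, the ratio was 0.702 and 0.701 in progenitors and 0.633 and 0.651 in Neutrophil-1-like cells. Without these 3 genes it was thus no longer higher in Neutrophil-1-like cells. Leaving out small subunit genes chosen as high there had to lower it, and the 4 large subunit genes were kept in.

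The same picture was seen across all classes with at least 20 cells in each library. Of the 84 members with at least 500 UMIs, the 10 whose part in the ribosomal protein UMIs varied most were Rpl3, Rpl12, Rpl10a, Rpl36a, Rps9, Rps19bp1, Rps27a, Rpl7l1, Rps2 and Rps27rt, with standard deviations of the log2 share over 11 classes between 1.15 and 0.68 (mean of both libraries). Rps19bp1, whose product binds Rps19, and Rpl7l1, a paralog of Rpl7, had only 818 and 871 UMIs in all. Rps2 had its largest part in Erythrocyte-like cells, with 3493 and 4701 CPM there, and its smallest in Maturing neutrophil-like cells, with 181 and 189 CPM. The most even members were Rpl23 (0.12), Rps3, Rps15, Rps13 and Rps15a, the last at 0.13. Across the 84 genes, the log2 makeup of each class correlated between libraries at 0.969 to 0.998. Against the makeup of all cells outside the neutrophil classes, the Neutrophil-1-like makeup correlated at 0.795 in Col1a1fspKO and 0.781 in WT, and the Mono/Macro-like makeup, itself part of that sum, at 0.993 and 0.992. Depth differs between classes and lowers such a correlation in the classes with few ribosomal protein UMIs. The Neutrophil-1-like makeup includes the single cells that stood apart.

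**Figure D4:**
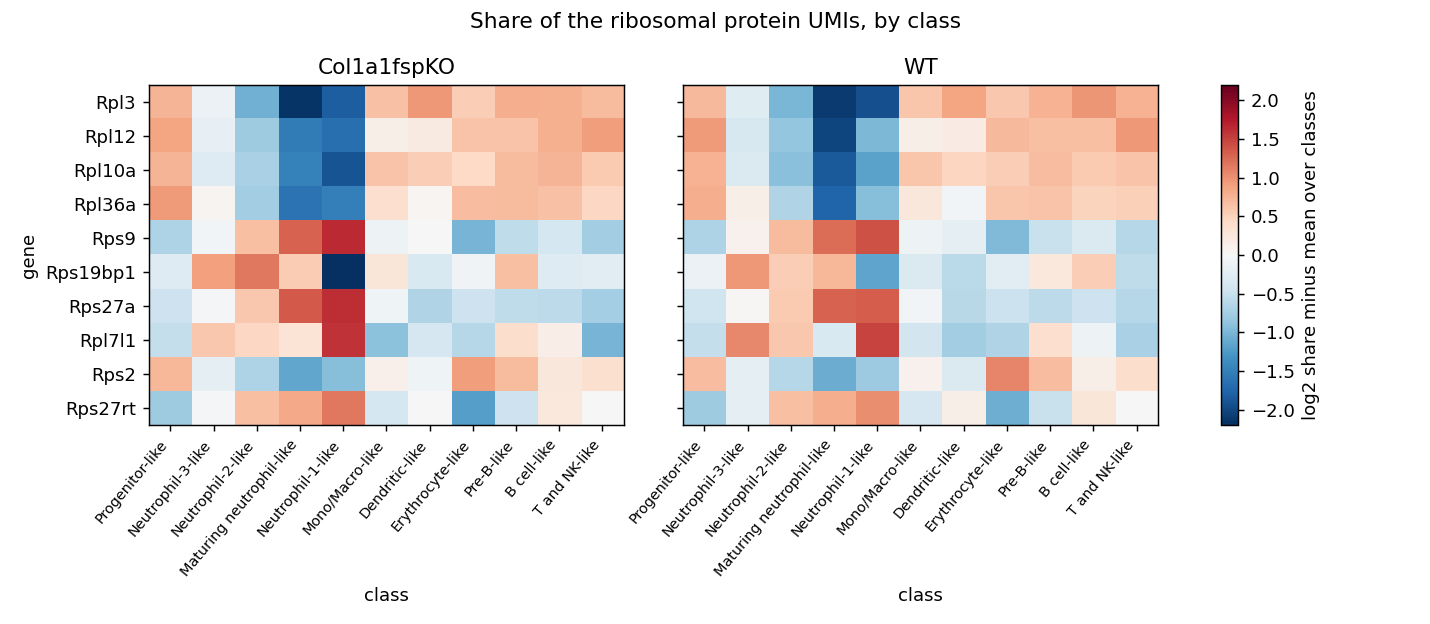
Log2 share of the ribosomal protein UMIs that each of the 10 most variable members took in a class, minus the gene's mean over the 11 classes, in each library. Rpl3, Rpl12, Rpl10a and Rpl36a are low (blue) and Rps9, Rps27a and Rps27rt high (red) in the last 2 neutrophil classes of both libraries.

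The ratios were set beside the C and T stretches at the promoters. Over the 61 members with both values, Spearman's rho between the length and the progenitor to Neutrophil-1-like ratio was 0.02 in Col1a1fspKO and -0.02 in WT, given as a description. The 30 members with a stretch had median ratios of 12.6-fold and 12.3-fold, and the 31 without one 12.7-fold and 12.6-fold. Rps9, shown above with a stretch of 8, and Rpl12, with 6, were at opposite ends. Where a gene had several listed starts, the length is that at the start with the longest stretch. A listed start is not always the start used in a cell, and translation was not measured.

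The 10 members with most UMIs took 21.0% of all member UMIs. They included Rpl41, Rps29, Rplp0, Rpl32, Rpl13, Rps27, Rps19, Rpl37a and Rpl39. A 3′ count is not a level per length, so this order describes the counts and not the amounts of protein. Rpl41, the shortest ribosomal protein, had 57035 and 59508 UMIs. It had 10878 and 11145 CPM in progenitors and 1023 and 1241 CPM in Neutrophil-1-like cells. Rplp0, of the ribosomal stalk, had 8080 and 8400 CPM against 693 and 773 CPM. Rpl13 had 8727 and 8386 CPM against 338 and 253 CPM. Rps29 was 8661 and 8287 CPM against 1059 and 1375 CPM. Rpl32 was 9194 and 9081 CPM against 355 and 401 CPM, and Rps19 8463 and 8187 CPM against 330 and 401 CPM. Rpl37a (7123 and 7324 against 1064 and 1062 CPM) and Rpl39 (6961 and 6820 against 322 and 587 CPM) lay in the same range. The abundant members thus ranged from Rps27, among the members with the smallest ratios, to Rpl13, with a ratio well above the median.

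The paralogs ranged from a few UMIs to the level of the gene they resemble. Rpl22l1, with 18698 UMIs in all beside 19059 for Rpl22, had 2272 and 2169 CPM in progenitors, above Rpl22 with 1938 and 1935 CPM. In Mono/Macro-like cells Rpl22l1 had 1101 and 1154 CPM and Rpl22 1403 and 1413 CPM, so the order of the pair was the reverse there. These are 3′ counts and not levels per length. Rps27l, a gene that responds to p53, had 796 and 893 CPM in progenitors, 789 and 779 CPM in Pre-B-like cells and 338 and 337 CPM in B cell-like cells. Of the members with at least 200 UMIs it was the lowest in B cell-like over Pre-B-like cells, at -1.21 and -1.20 on the log2 scale, while the median over members was 0.28 and 0.26. Rpl36al had 1391 and 1365 CPM in progenitors, 1402 and 1360 CPM in Mono/Macro-like cells and 46.4 and 66.9 CPM in Neutrophil-1-like cells. Rpl6l, annotated as a processed pseudogene, had 1029 and 1103 CPM in progenitors and 76.4 and 81.7 CPM in Neutrophil-1-like cells. How reads were split between it and Rpl6 is uncertain. Rpl3l, known from striated muscle, had 49 UMIs in Col1a1fspKO and 26 in WT. Of these, 14 and 9 were in Maturing neutrophil-like, 10 and 2 in Neutrophil-1-like, 10 and 4 in Mono/Macro-like cells and 3 and 0 in progenitors, too few to compare. Rpl39l, known from male germ cells, had 11 UMIs in WT, 8 of them in Mono/Macro-like cells, and had no row in the Col1a1fspKO table.

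Mono/Macro-like cells kept a much higher share than neutrophils. Progenitors were 1.42-fold above them in both libraries (interval 1.41 to 1.42 in each), and they were 7.58-fold and 7.20-fold above Neutrophil-1-like cells. Without the Mt2- and Car1-led cells the progenitors had 39.5% and 38.3%, beside 28.4% and 28.2% in Mono/Macro-like cells. The ratio over the Mono/Macro-like class was then below 1.42-fold in both libraries, and lower in WT than in Col1a1fspKO. The 3 clusters of the class were close together: the cluster led by Wfdc17 and Sirpb1c had 28.1% and 27.7%, the cluster led by Ass1 and Lgals1 30.1% and 30.5%, and the cluster led by Klf4, Ass1 and Fn1 26.97% and 26.87%. Rpl10 was the member lowest in progenitors against Mono/Macro-like cells, at -0.23 and -0.17 on the log2 scale, and Rpl12 the highest, at 1.246 and 1.306. Among the 82 members with at least 200 UMIs, 70 were more than 25% higher in progenitors in each library, against 27.7% and 31.0% of all genes tested. These log2 values and counts include the Mt2- and Car1-led cells.

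Erythrocyte-like cells spanned the widest range, from 1.12% to 44.1% in Col1a1fspKO and from 0.915% to 47.9% in WT. Globins, the chains of hemoglobin, took 34.6% and 30.8% of the UMIs of this class. The cells were divided by their globin share, a measure that accumulates as red cell precursors mature. With globins under 10% of UMIs, the ribosomal protein share was 39.1% in Col1a1fspKO (10 cells) and 40.4% in WT (14 cells). It was 28.5% (17 cells) and 27.6% (16 cells) at 10 to 30% globins, and 14.6% (17 cells) and 14.7% (22 cells) at 30 to 50%. At 50% or more it was 5.77% (41 cells) and 5.95% (28 cells). Since globins stand in the denominator, the share was also taken of the other UMIs, and was then 40.5% and 42.3% in the first group and 14.3% and 14.2% in the last. Median ribosomal protein UMIs per cell went from 7938 and 7393 to 420 and 525. Rpl41 was the member nearest to its progenitor level in this class. Its log2 ratios of progenitors over Erythrocyte-like cells were 0.43 and 0.31, beside a median of 1.05 and 0.88 over members. The progenitors here include the Mt2- and Car1-led cells, which the finer clustering named Erythrocyte-like.

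In the B lineage, B cell-like cells, marked by Ms4a1 and Cd74, had a share 1.22-fold and 1.19-fold above Pre-B-like cells. This difference depended on the clustering. At resolution 0.4 B cell-like cells had 28.8% and 26.96%, against 27.4% and 27.09% in Pre-B-like cells, so that the WT order was reversed. With the members used in clustering the shares were 28.96% and 27.7% against 27.4% and 26.9%. In the main clustering the median ribosomal protein UMIs per cell of B cell-like cells were no higher (960 and 1124.5 against 975.5 and 1429.5). Their other UMIs were 0.520-fold and 0.452-fold those of Pre-B-like cells. The finer clustering used above also divided the Pre-B-like cells. The cluster led by Igll1 and Vpreb1, with median depths of 16654 and 18058 UMIs, had 32.2% (34 cells) and 33.0% (29 cells). The cluster led by Myl4 and Arntl, at 5377 and 6819.5 UMIs, had 22.6% (91 cells) and 23.6% (106 cells). Cells led by Vpreb1 and Dntt, the latter a gene of pro-B cells, had 26.5% (14 cells) and 28.9% (9 cells). A shallow cluster led by Dnajc7 had 22.6% and 20.4%. Among Pre-B-like cells the share of a cell and its summed share of 14 cell cycle genes had a Spearman's rho of -0.43 in Col1a1fspKO and -0.41 in WT. The share and depth of these cells had a rho of 0.24 and 0.42.

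The genotypes were then compared within classes. Over the 11 classes with at least 20 cells in each library, the median ratio of the share, Col1a1fspKO over WT, was 1.006, with 8 of 11 ratios above 1 and a range from 0.884 to 1.17. The furthest above 1 were Neutrophil-3-like cells, at 1.17 (interval 1.15 to 1.18), and Neutrophil-2-like cells, at 1.11 (1.096 to 1.127). The furthest below was the Erythrocyte-like class, at 0.884 (0.878 to 0.889). In progenitors the ratio was 1.006 (1.001 to 1.010), in Mono/Macro-like cells 1.006 (1.003 to 1.010), in Dendritic-like cells 1.0003 (0.988 to 1.013) and in Pre-B-like cells 1.01 (1.01 to 1.02). B cell-like cells were at 1.04 (1.03 to 1.05), T and NK-like cells at 0.968 (0.958 to 0.978) and Maturing neutrophil-like cells at 1.06 (1.04 to 1.08). Neutrophil-1-like cells were at 0.955 (0.925 to 0.986), and at 1.05 without the 2 single cells that stood apart, so that the direction in this class rested on them. The direction also turned in Pre-B-like cells without the cells over 20000 UMIs (0.969), in T and NK-like cells with CCA integration (1.003) and in Dendritic-like cells with a shared UMI minimum (0.995). Without the Mt2- and Car1-led cells the ratio in progenitors was 1.032. The intervals leave out the spread between mice.

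Other measures also differed between the libraries in the classes with the larger differences. In Neutrophil-3-like cells the median cell had 7.34% in Col1a1fspKO and 6.25% in WT, and the lower and upper quartiles were 5.96% and 9.25% in Col1a1fspKO and 5.35% and 8.01% in WT, so that the cells overlapped widely. Globins were 3.57% of the UMIs of this class in Col1a1fspKO and 1.02% in WT, and without the 2 Col1a1fspKO cells over 5% globins the ratio was 1.197. Elane and Mpo, granule genes of the progenitor stage, together had 237 and 304 CPM in this class. In Erythrocyte-like cells, 41 of 85 Col1a1fspKO cells and 28 of 80 WT cells had at least 50% globins, and within the groups of like globin share given above the libraries stood close. The part of these in the differences between libraries was not tested.

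**Figure D5:**
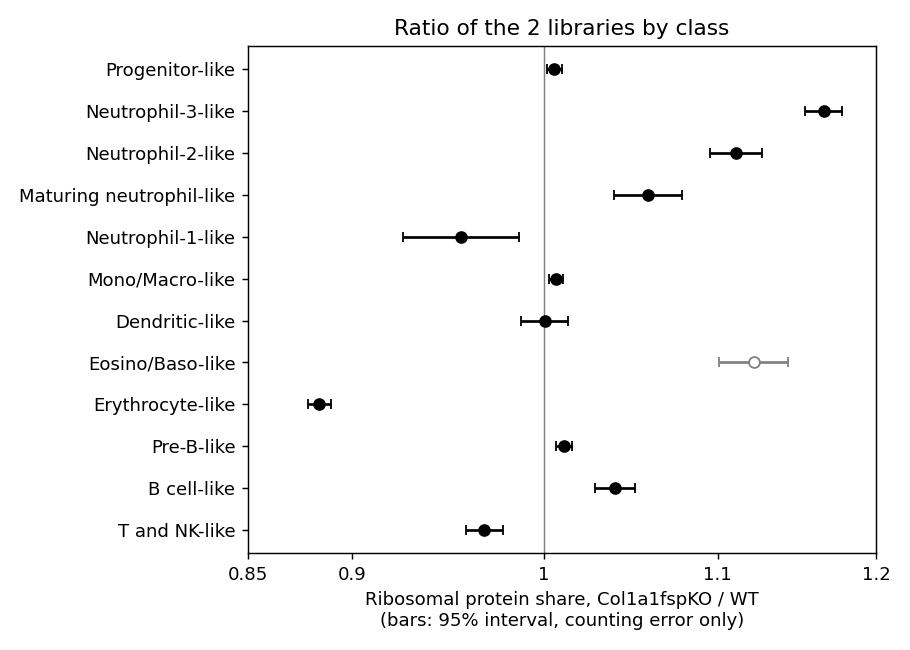
Ratio of the ribosomal protein share, Col1a1fspKO over WT, in each class (log axis), with bars for the 95% interval that covers counting error only, and an open grey point for the class with under 20 cells in a library. Neutrophil-3-like cells, at 1.17, and Erythrocyte-like cells, at 0.884, are furthest from 1.

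Single members were then compared between the libraries. Over the 11 classes there were 830 pairs of a member and a class with at least 200 UMIs, and 34 of them (4.10%) differed by more than 25% (one library over the other, in either direction), against 12.5% of the 9066 pairs over all genes. Members have more UMIs than most genes and so less counting error, and the share is not read as stability of these genes. No member passed this in progenitors, Dendritic-like or B cell-like cells. Neutrophil-3-like cells held 11 of 81, all higher in Col1a1fspKO, among them Rpl12, Rpl3, Rpl13a and Rps12. Neutrophil-2-like cells held 7 of 77, all higher in Col1a1fspKO. The median log2 ratio of the members was 0.21 and 0.12 in these classes, beside -0.02 and 0.01 over all genes tested. Of 82 members in Erythrocyte-like cells, 4 were lower (Rpl4, Rpl5, Rps2 and Rps27rt) and 1 was higher. The share over all genes was taken over the 11 classes together and not within each class. The counts of single classes are thus not read as a result about the members.

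Rpl29 was the 1 member that passed it in the same direction in 3 or more classes. It encodes a large subunit protein (chr9:106429454-106431568, plus strand), and in Mono/Macro-like cells it stood at 188 CPM in the Col1a1fspKO and 133 CPM in the WT library, a ratio of 1.41 (interval 1.2004 to 1.6609). In Erythrocyte-like cells it had 151 and 103 CPM (ratio 1.47, 1.13 to 1.93), and in Pre-B-like cells 208 and 160 CPM (1.30, 1.09 to 1.54). In progenitors it had 259 and 220 CPM, a ratio of 1.17 (0.988 to 1.40). Its counts were 369 and 258 UMIs in the first of these classes, far below most members. It had at least 200 UMIs in 4 classes only. The first 3 classes are given because they passed, and their intervals do not allow for that choice. How many of all genes passed in 3 or more classes was not counted.

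Genes outside the rule that serve the same machinery were taken from lists of related genes. The 16 translation factors and TOP transcripts measured, among them Eef1a1, Tpt1 and Eef2, made up 2.15% and 2.26% of UMIs in progenitors and 0.245% and 0.263% in Neutrophil-1-like cells, a ratio of 8.76-fold and 8.59-fold. Of them, 15 and 16 had at least 200 UMIs, reached mostly through the progenitors, and all of these were more than 25% higher there, beside 64.2% and 74.3% of all genes tested. Eef1a1, the elongation factor that brings transfer RNA to the ribosome, had 6706 and 7108 CPM against 478 and 654 CPM. Tpt1 had 2914 and 3164 CPM against 630 and 528 CPM, and Eef2 1564 and 1730 CPM against 207 and 223 CPM. The 23 ribosome biogenesis genes made up 0.462% and 0.485% in progenitors and 0.0207% and 0.0319% in Neutrophil-1-like cells. Npm1, a nucleolar chaperone of ribosome assembly, had 1492 and 1471 CPM against 24.6 and 14.9 CPM. It also had 1827 and 1397 CPM in Pre-B-like cells. Nop10 (752 and 748 CPM in progenitors) and Polr1d (314 and 393 CPM) had 24.6 and 14.9 CPM and 51.8 and 126 CPM in Neutrophil-1-like cells.

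The 77 mitochondrial ribosomal protein genes, whose products form the separate ribosome of mitochondria, differed less. They made up 0.742% and 0.774% of UMIs in progenitors and 0.233% and 0.246% in Neutrophil-1-like cells, a ratio of 3.19-fold and 3.15-fold. Mrpl33 was lower in progenitors, with 364 and 406 CPM, than in Neutrophil-1-like cells, with 1081 and 1159 CPM. Mrps21 had 209 and 219 CPM against 216 and 215 CPM, and Mrpl18 224 and 244 CPM against 46.4 and 14.9 CPM.

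Fau and Gnb2l1 encode ribosomal proteins whose symbols fall outside the rule. Fau, a fusion of a ubiquitin-like protein with a small subunit protein, had 4794 and 4663 CPM in progenitors and 3250 and 2987 CPM in Neutrophil-1-like cells. Gnb2l1, whose product sits on the small subunit, had 1791 and 1979 CPM against 57.3 and 96.6 CPM. Fau thus differed between the stages far less than Gnb2l1. The 15 -ps pseudogenes had 0.995% and 0.982% of UMIs in progenitors and 0.0808% and 0.0765% in Neutrophil-1-like cells. Of these, Rpl10-ps3 had 1650 and 1652 CPM in progenitors and 123 and 66.9 CPM in Neutrophil-1-like cells, Rpl23a-ps3 1511 and 1577 CPM against 164 and 134 CPM, and Rpl9-ps6 1381 and 1275 CPM against 218 and 238 CPM. Their sequence is close to that of members, and how reads were split between them is uncertain.

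Over 22 points of class and library, the genes outside the rule most like the summed members in log2 CPM, among 1784 genes with at least 1000 UMIs, were Gm9493 (Pearson's r 0.994), Rpl23a-ps3, Gnb2l1, Rpl7a-ps5 and Gm10709 (0.991). Points of a class share cell type and points of a library share preparation, and the values are a description. Among members with the same minimum, Rps3 was most like the sum (0.998) and Rps9 least (0.840), followed by Rps27rt (0.868), Rps27a (0.893) and Rps27l (0.898).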

How the data were processed

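Bone marrow cells of 2 libraries were profiled with 10x Genomics 3′ v2 chemistry. The deposited values were raw UMI counts per gene and cell, which the authors made with Cell Ranger against mm10; the labels' processing notes also name Seurat 3.5.3. The study kept cells with 200 to 7000 genes and at most 10% mitochondrial UMIs, and no deposited cell lay outside these limits. Here the tables were joined, log-normalised and clustered with Seurat 5.3.0 (R 4.3.3; 2000 variable genes, 1931 after the ribosomal and translation genes were left out; 27 principal components; resolution 0.8; 16 clusters). A cluster took the class with the highest mean marker score (log2(CPM + 10), standardised over clusters), and was left without a name where another class had more markers than its own among the 10 leading genes, or where fewer than 3 markers were found in 10% of its cells. No doublet caller was run, and doublets were kept.

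Shares are summed UMIs of the members over all UMIs, with exact Clopper-Pearson 95% intervals; ratios have intervals from the binomial split of both counts (Python 3.11.15, scipy 1.17.1). UMIs are not independent of the mouse, and intervals cover counting error only. On simulated counts with 200 changed genes, the interval held the true ratio of 93.5% of them with Progenitor-like means (4309 genes) and 97.5% with Mono/Macro-like means (5734 genes). Counts per gene used a minimum of 200 UMIs, a difference of more than 25% and 0.5 added to each count. Named genes were the 10 members with most UMIs, the 10 with the most variable share of member UMIs, the paralogs, members more than 25% apart between libraries in 3 or more classes, members listed in 1 table, the 5 most similar other genes and the 3 genes with most UMIs of each other list. Members and lists were chosen with earlier results of these data known. Rpl6l was put with the paralogs after the files were read, and other genes at the ends of a range were named after their values were seen. Positions are from GENCODE vM21 and RefSeq tables (GRCm38). Alternatives in denominator, depth, clustering, cell filter and class assignment were tried. Some genes that these rules name are not reported here.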

Additional observations from a re-analysis of the deposited data

How the results depend on the processing

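The share of progenitors over Neutrophil-1-like cells, 10.7-fold in Col1a1fspKO and 10.2-fold in WT, stayed above 1 in every alternative that gave a value, but its size moved. It was 5.86 and 5.43 without the 20 most abundant other genes, 11.8 and 12.1 when the members were used in clustering, and 5.28 and 2.37 when single cells were assigned by marker score, where the Neutrophil-1-like cells had 6.90% and 15.3% and no longer the lowest share. The cause was not tested. In Col1a1fspKO it was 11.3 for the mean of single cells, 11.3 for cells thinned to 2500 UMIs and 10.3 with a shared minimum of 2909 UMIs. In WT it was 11.7 with the stricter cell filter. Without the single Neutrophil-1-like cells at or over 10%, an alternative chosen after seeing the data, it was 11.2 and 11.7. Without the Progenitor-like cells named Erythrocyte-like at resolution 1.2, also chosen after seeing the data, it was 10.6 and 9.76. Resolutions 0.4 and 1.2 and CCA integration gave no Neutrophil-1-like class and so no value. At resolution 1.2 a cluster led by Retnlg and Gm5483 was left without a name. It had 3.73% in Col1a1fspKO (144 cells) and 3.88% in WT (56 cells). The median ratio of Col1a1fspKO over WT, 1.006, was 1.016 without the 20 genes, 1.022 for the mean of single cells, 1.018 for thinned cells, 1.021 with the members in clustering, 1.014 and 1.017 at resolutions 0.4 and 1.2, 1.011 with CCA, 1.016 by marker score, 1.011 without the single Neutrophil-1-like cells, 1.011 without those Progenitor-like cells and 1.002 without the 89 cells over 20000 UMIs, the last also chosen after seeing the data. The error set beside these is the counting interval of the class at the median, which leaves out the mice. Within Neutrophil-1-like cells the ratio of the libraries was above 1 with the members in clustering and with the stricter cell filter (1.097), and 0.451 by marker score. Members more than 25% apart between libraries were 34 of 830 pairs, 23 of 735 with at least 500 UMIs and 30 without the 20 genes. No leave-one-out was possible with 1 library per genotype. No paired analysis was possible because each genotype has 1 library.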
